A study of Arabidopsis thaliana with 30 samples.

Results

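Abscisic acid (ABA) holds seeds dormant, and the amount of the hormone in a seed is set by its synthesis and its breakdown. The 9-cis-epoxycarotenoid dioxygenases (NCEDs) cleave epoxycarotenoids in the plastid to the ABA precursor xanthoxin, which is regarded as the limiting step of synthesis. The aldehyde oxidase AAO3 makes ABA from abscisic aldehyde in the last step, and the cytochrome P450 enzymes of the CYP707A family inactivate ABA by hydroxylation at the 8′ position. In Arabidopsis seeds, NCED6 and NCED9 are known for ABA synthesis during seed development, and CYP707A2 is known for the decline of ABA after imbibition.

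The genes described here are the dioxygenase genes NCED2 (AT4G18350), NCED3 (AT3G14440), NCED5 (AT1G30100), NCED6 (AT3G24220) and NCED9 (AT1G78390), the aldehyde oxidase gene AAO3 (AT2G27150), and the hydroxylase genes CYP707A1 (AT4G19230), CYP707A2 (AT2G29090), CYP707A3 (AT5G45340) and CYP707A4 (AT3G19270). They were chosen by locus, and all 10 were found among the 27827 genes of the deposited table. The samples were after-ripened seeds of the accession Columbia (Col-0), with no mutant and no treatment other than imbibition in continuous light. Total mRNA and polysomal mRNA, which is the mRNA carrying at least a pair of ribosomes in a sucrose gradient, were measured in dry seeds and 6, 26, 48 and 72 h into imbibition (hours after imbibition, HAI), with 3 biological replicates in each of the 10 groups and 30 arrays in all. Whole seeds or seedlings were extracted, so that embryo and endosperm were measured together, and fewer cells of a type cannot be told apart from less RNA per cell. By the study's methods 26 HAI is the start of testa rupture, 48 HAI follows radicle protrusion in most seeds, and most seedlings are green at 72 HAI.

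Levels are RMA signals on the log2 scale, so that a difference of 1 is a 2-fold change, and a level of 4 is taken as the noise level. The size of a change to or from a level below 4 is poorly determined, and such changes are given as differences of the log2 signal and not as folds. The labelled stages were checked with marker genes. The mean level of 6 seed reserve and late embryogenesis genes in total mRNA went from 11.60 in dry seeds to 4.50 in seedlings of 72 HAI, and that of 4 photosynthesis genes from 4.62 to 9.34. The 2 endosperm genes did not run together in total mRNA, as EPR1 went from 11.20 to 6.96, whereas MAN7 was at 4.16 in dry seeds, 7.76 at 26 HAI and 4.31 at 72 HAI. Replicate 3 of polysomal mRNA at 72 HAI stood apart, with a mean of 7.01 over the seed genes against 3.94 in each of the other replicates. Leaving it out moved the polysomal mean of AAO3 at 72 HAI from 4.83 to 5.14 and that of CYP707A1 from 5.38 to 5.25, and the means of the other tested genes by less. Calls that turned on this array are given with and without it. The array medians over all genes ranged from 3.53 to 4.15.

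Testing was limited to genes that exceeded this noise level in every replicate of one or more of the 10 groups, and 6 of the 10 genes did so, namely NCED3, NCED5, NCED9, AAO3, CYP707A1 and CYP707A2. The other 4 are described by their levels. A change was called at a log2 change above 1 in size with a Benjamini-Hochberg adjusted p below 0.05 from limma, adjusted over the 17061 genes tested, and "rose" and "fell" are used for called changes only. Consecutive comparisons share the arrays of the time point between them. Because levels of different probe sets are not comparable, levels are compared between samples of one gene and not between genes.

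**Figure D1:**
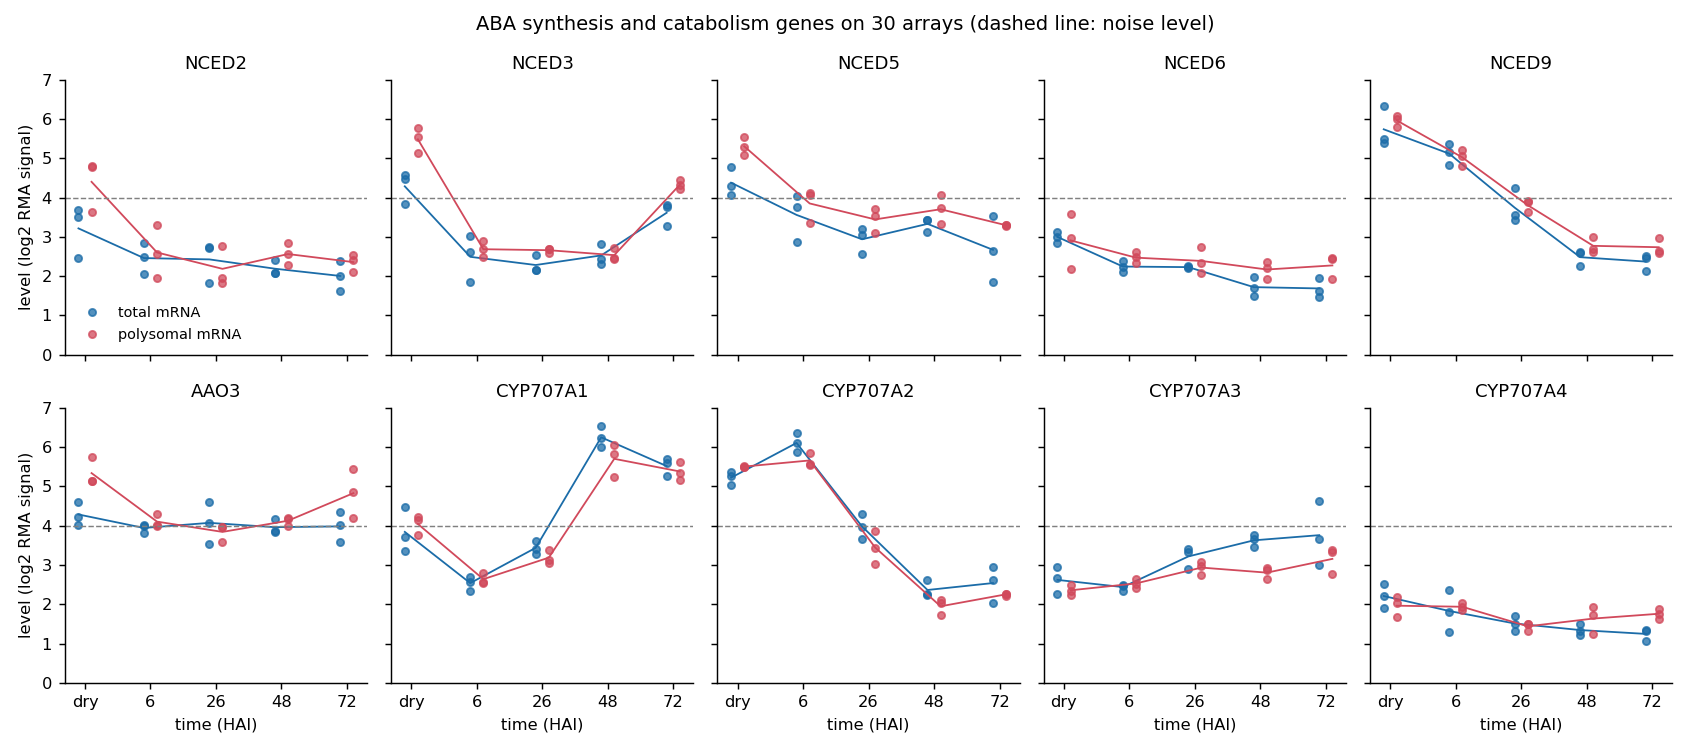
Level of each gene (log2 RMA signal, vertical axis) at each time point (HAI, horizontal axis) in total mRNA (blue) and polysomal mRNA (red), with a point for each of the 3 replicates, lines through the group means and the noise level of 4 dashed. NCED9 and CYP707A2 were near or below 4 from 26 HAI on, CYP707A1 was above 5 at 48 and 72 HAI, and NCED6 and CYP707A4 were below 4 on every array.

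NCED9 declined in steps from the dry seed to the germinated seed. In total mRNA its 3 replicates were at 5.40, 5.49 and 6.33 in dry seeds, 4.83, 5.37 and 5.15 at 6 HAI, 3.55, 3.44 and 4.24 at 26 HAI, 2.26, 2.58 and 2.61 at 48 HAI. Finally, 72 HAI gave 2.14, 2.51 and 2.47. In polysomal mRNA they were at 6.08, 5.81 and 6.01 in dry seeds, 5.05, 5.21 and 4.80 at 6 HAI, 3.88, 3.63 and 3.91 at 26 HAI, 2.63, 3.00 and 2.69 at 48 HAI. By 72 HAI they measured 2.64, 2.97 and 2.60. The replicates of dry seeds, 6, 26 and 48 HAI did not overlap between neighbouring time points in either fraction, whereas those of 48 and 72 HAI overlapped. NCED9 was the one dioxygenase gene of the 5 with all replicates of a later time point, 6 HAI, above the noise level in both fractions.

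Between dry seeds and 6 HAI, NCED9 changed by −0.62 (SE 0.22, adjusted p = 0.0185 from limma) in total mRNA and by −0.94 (SE 0.22, adjusted p = 0.000600) in polysomal mRNA, below the 2-fold limit in both. It then fell between 6 and 26 HAI by 1.37 in total mRNA (SE 0.22, adjusted p = 7.50e-06) and by 1.22 in polysomal mRNA (SE 0.22, adjusted p = 4.01e-05). Between 26 and 48 HAI it fell by 1.26 (adjusted p = 2.16e-05) and by 1.03 (adjusted p = 0.000243). From dry seeds to 72 HAI it fell in both fractions, with log2 changes of −3.37 (total) and −3.23 (polysomal). The polysomal change at 6 HAI passed the 2-fold limit without replicate 2 of polysomal mRNA in dry seeds (−1.02) or at 6 HAI (−1.03). The polysomal fall at 48 HAI lay at the limit and was between −0.999 and −0.96 without replicate 1 or 3 at 26 HAI or replicate 1 or 3 at 48 HAI.

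NCED3, the dioxygenase gene best known for its induction by drought, was detected in dry seeds, fell on hydration and returned in the greening seedling. In total mRNA the replicates were at 4.47, 4.56 and 3.82 in dry seeds, at 3.02, 1.84 and 2.62 at 6 HAI, and between 2.15 and 2.82 at 26 and 48 HAI. At 72 HAI they were at 3.75, 3.81 and 3.28, above all replicates of 48 HAI and below all of dry seeds. In polysomal mRNA the replicates were at 5.78, 5.54 and 5.13 in dry seeds, 2.68, 2.89 and 2.48 at 6 HAI, 2.59, 2.69 and 2.70 at 26 HAI, 2.43, 2.46 and 2.72 at 48 HAI. The 72 HAI arrays gave 4.44, 4.22 and 4.32. Only in dry seeds and at 72 HAI did all 3 polysomal replicates exceed the noise level.

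The fall of NCED3 from dry seeds to 6 HAI was called in total mRNA (log2 change −1.79, SE 0.24, adjusted p = 3.74e-07 from limma) and in polysomal mRNA (−2.80, SE 0.24, adjusted p = 1.37e-10). From 48 to 72 HAI it rose in total mRNA (1.09, SE 0.24, adjusted p = 0.000706) and in polysomal mRNA (1.79, SE 0.24, adjusted p = 1.25e-06). The total mRNA at 72 HAI was itself below the noise level in all replicates. Its rise was below the 2-fold limit without replicate 1 of 48 HAI (0.98) or replicate 2 of 72 HAI (0.99), and after a further quantile normalization (0.85).

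NCED5 was above the noise level in all replicates of dry seeds, at 4.29, 4.79 and 4.06 in total mRNA and at 5.55, 5.09 and 5.28 in polysomal mRNA. At 6 HAI it was at 2.87, 3.77 and 4.04 in total mRNA and at 3.36, 4.07 and 4.12 in polysomal mRNA, and these values did not overlap with those of dry seeds. Afterwards its group means were between 2.67 and 3.70, and neighbouring time points overlapped, except that polysomal NCED5 was higher in all replicates of 48 HAI than in those of 72 HAI. Polysomal NCED5 fell between dry seeds and 6 HAI (−1.46, SE 0.32, adjusted p = 0.000335 from limma). Total NCED5 changed by −0.82 (SE 0.32, adjusted p = 0.0326) over the same interval and by −1.06 without replicate 3 of total mRNA at 6 HAI. Against dry seeds, NCED5 at 72 HAI was lower by −1.71 in total mRNA and by −2.01 in polysomal mRNA, both called, and no later interval was called. The change of total mRNA between 48 and 72 HAI, −0.66, became −1.09 without replicate 3 of total mRNA at 72 HAI and then passed the threshold.

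NCED2 and NCED6 did not pass the noise filter. Polysomal NCED2 in dry seeds was at 4.79, 4.78 and 3.64, above all other NCED2 values of that fraction, which were between 1.82 and 3.30, and total NCED2 ranged from 1.62 to 3.68. When the genes were tested without the noise filter, polysomal NCED2 changed by −1.80 between dry seeds and 6 HAI (SE 0.36, adjusted p = 0.000158 from limma). NCED6, known for its expression in the endosperm, was between 1.48 and 3.59 on the 30 arrays. Its highest group mean in total mRNA was 3.00 ± 0.14 (SD, n = 3) in dry seeds, where the 2 endosperm marker genes EPR1 and MAN7 were at 11.20 ± 0.08 and 4.16 ± 0.22.

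AAO3 stayed close to the noise level in total mRNA, with group means between 3.94 and 4.28 and overlapping replicates at all neighbouring levels. In polysomal mRNA it was at 5.13, 5.14 and 5.75 in dry seeds, 4.0001, 4.30 and 4.01 at 6 HAI, 3.58, 3.97 and 3.96 at 26 HAI, 4.20, 3.99 and 4.18 at 48 HAI. At 72 HAI the replicates measured 4.85, 5.44 and 4.20. The polysomal replicates of dry seeds lay above those of 6, 26 and 48 HAI and overlapped with those of 72 HAI. Polysomal AAO3 fell 2.35-fold between dry seeds and 6 HAI (−1.23, SE 0.26, adjusted p = 0.000219 from limma), whereas total AAO3 changed by −0.34 (SE 0.26, adjusted p = 0.278). Between 48 and 72 HAI polysomal AAO3 changed by 0.70 (SE 0.26, adjusted p = 0.0345), below the 2-fold limit. Without replicate 3 of polysomal mRNA at 72 HAI, the array with high seed gene levels, the change was 1.02 (adjusted p = 0.00353) and was called.

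CYP707A2, the hydroxylase gene of early imbibition, was high in dry seeds and at 6 HAI and below the noise level in the germinated seed. In total mRNA it was at 5.27, 5.02 and 5.37 in dry seeds, 6.35, 6.10 and 5.87 at 6 HAI, 4.31, 3.66 and 3.97 at 26 HAI, 2.61, 2.22 and 2.25 at 48 HAI. Finally, 72 HAI gave 2.63, 2.95 and 2.04. The replicates of 6 HAI were all above those of dry seeds, and both were above those of 26 HAI. In polysomal mRNA it was at 5.50, 5.50 and 5.51 in dry seeds, 5.86, 5.58 and 5.54 at 6 HAI, 3.43, 3.03 and 3.87 at 26 HAI, 1.71, 2.03 and 2.1 at 48 HAI. By 72 HAI they measured 2.27, 2.27 and 2.22. The order of the time points was the same in both fractions, with the lowest mean at 48 HAI.

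The change of CYP707A2 between dry seeds and 6 HAI was 0.88 in total mRNA (1.85-fold, SE 0.21, adjusted p = 0.000902 from limma), below the 2-fold limit, and 0.16 in polysomal mRNA (SE 0.21, adjusted p = 0.556). The change in total mRNA was 1.004 and passed the limit without replicate 3 of total mRNA at 6 HAI. Between 6 and 26 HAI CYP707A2 fell in total mRNA (−2.13, SE 0.21, adjusted p = 3.92e-09) and in polysomal mRNA (−2.21, SE 0.21, adjusted p = 2.01e-09). Between 26 and 48 HAI it fell again, by 1.62 in total mRNA (adjusted p = 3.68e-07) and by 1.50 in polysomal mRNA (adjusted p = 1.28e-06). From dry seeds to 72 HAI it fell in both fractions, with log2 changes of −2.68 (total) and −3.25 (polysomal).

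CYP707A1 followed a different course, with low levels in the imbibed seed and its highest levels at 48 HAI. In total mRNA it was at 4.47, 3.71 and 3.34 in dry seeds, 2.34, 2.70 and 2.58 at 6 HAI, 3.28, 3.41 and 3.62 at 26 HAI, 6.53, 6.22 and 6.00 at 48 HAI. The 72 HAI arrays gave 5.69, 5.26 and 5.60. In polysomal mRNA it was at 4.21, 3.77 and 4.15 in dry seeds, 2.54, 2.57 and 2.81 at 6 HAI, 3.06, 3.38 and 3.12 at 26 HAI, 6.06, 5.23 and 5.82 at 48 HAI. At 72 HAI the replicates measured 5.34, 5.17 and 5.63. In both fractions every replicate of 48 and 72 HAI was above every replicate of the earlier stages.

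The rise of CYP707A1 between 26 and 48 HAI started from levels below the noise and was called in total mRNA (2.81, SE 0.23, adjusted p = 1.04e-10 from limma) and in polysomal mRNA (2.52, SE 0.23, adjusted p = 8.41e-10). It had fallen between dry seeds and 6 HAI, by 1.30 in total mRNA (SE 0.23, adjusted p = 2.65e-05) and by 1.41 in polysomal mRNA (SE 0.23, adjusted p = 7.81e-06). The fall in total mRNA was −0.99 without replicate 1 of total mRNA in dry seeds, the highest of the 3. Between 6 and 26 HAI the change was 0.90 in total mRNA (adjusted p = 0.00170) and 0.55 in polysomal mRNA (adjusted p = 0.0462), and between 48 and 72 HAI it was −0.73 (adjusted p = 0.0144) and −0.32 (adjusted p = 0.282), all below the 2-fold limit. Over the 30 arrays the levels of CYP707A1 and CYP707A2 had a Pearson's r of −0.83, whereas those of CYP707A2 and NCED9 had an r of 0.92. These values describe courses that share the same arrays and time points, and no p is attached to them.

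CYP707A3 and CYP707A4 did not pass the noise filter. CYP707A3 had 1 array above 4, replicate 1 of total mRNA at 72 HAI at 4.63, and its mean in total mRNA went from 2.62 ± 0.34 (SD, n = 3) in dry seeds to 3.76 ± 0.82 at 72 HAI. Without the filter this difference was 1.14 (SE 0.26, adjusted p = 0.000337 from limma). CYP707A4 was between 1.08 and 2.53 on all arrays.

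**Figure D2:**
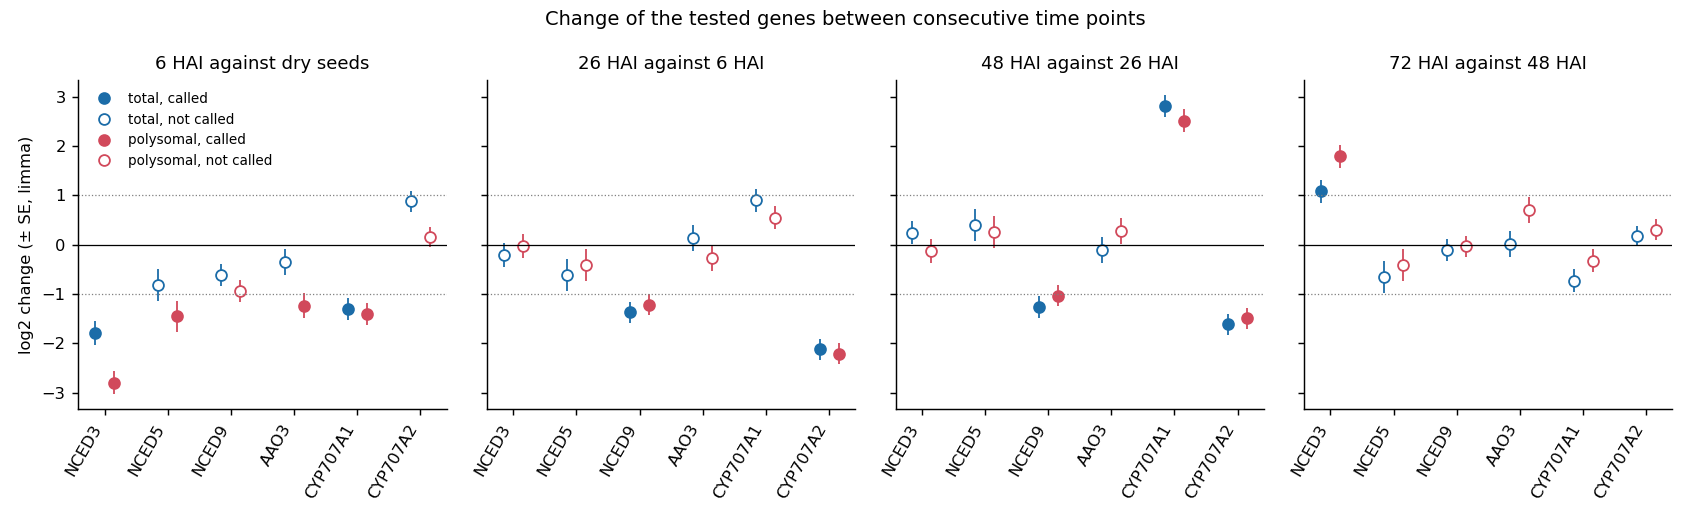
Log2 change (vertical axis, ± SE from limma) of the 6 tested genes over the 4 intervals in total mRNA (blue) and polysomal mRNA (red). Filled points are called changes, and dotted lines mark 2-fold changes. CYP707A1 rose by 2.81 and 2.52 and CYP707A2 fell by 1.62 and 1.50 between 26 and 48 HAI.

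Read over the intervals, the calls on hydration were downward, for genes of both synthesis and catabolism. In total mRNA 2 of the 6 tested genes were called at 6 HAI against dry seeds (NCED3 and CYP707A1, both lower), where 26.8% of all tested genes were called in either direction and 9.93% were called lower. In polysomal mRNA 4 were called (NCED3, NCED5, AAO3 and CYP707A1, all lower), against 32.1% of all genes in either direction and 15.1% lower. NCED5 had passed the noise filter through the dry seed groups alone, which favours a fall from dry seeds. NCED3 had passed only through polysomal mRNA of dry seeds and of 72 HAI, which likewise favours this fall and a later rise to 72 HAI. The polysomal changes of the genes that did not pass were −1.80 for NCED2, −0.44 for NCED6, 0.17 for CYP707A3 and −0.03 for CYP707A4.

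Between 6 and 26 HAI the same 2 genes, NCED9 and CYP707A2, were called lower in each fraction, where 25.7% of all genes were called in total mRNA (10.2% lower) and 24.5% in polysomal mRNA (9.77% lower). Between 26 and 48 HAI, when the radicle emerged, 3 genes were called in each fraction, CYP707A1 higher and NCED9 and CYP707A2 lower, against 30.2% of all genes in total mRNA (15.3% higher, 14.9% lower) and 28.7% in polysomal mRNA (14% higher, 14.6% lower). Between 48 and 72 HAI NCED3 was the one gene called in each fraction, and it was higher, against 12% of all genes in total mRNA (6.64% higher) and 13.9% in polysomal mRNA (6.52% higher). NCED9 and CYP707A2 had passed the noise filter only through dry seeds and 6 HAI, and CYP707A1 only through 48 and 72 HAI. This favours later falls of NCED9 and CYP707A2 and a rise of CYP707A1 to 48 HAI. With 6 genes, these shares are descriptions of the members and not of a set.

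From dry seeds to 72 HAI, 4 of the 6 genes were called in total mRNA (60.1% of all genes, 33% higher and 27.1% lower), with NCED5, NCED9 and CYP707A2 lower and CYP707A1 higher. In polysomal mRNA 5 were called (61.2% of all genes, 30.2% higher and 31.1% lower), NCED3 being the further one, lower by −1.16 (SE 0.24, adjusted p = 7.07e-05 from limma). NCED5, NCED9 and CYP707A2 had passed the noise filter through dry seeds and not through 72 HAI. CYP707A1 had passed it through 72 HAI and not through dry seeds. The filter thus favours the calls of these 4 genes in both fractions, which limits the comparison with the shares of all genes. Total NCED3 changed by −0.67, but by −1.20 when the array medians were set equal and by −1.35 after a further quantile normalization, and was called under both. Setting the medians equal shifts every change in total mRNA over this interval by −0.53 and in polysomal mRNA by −0.44. The polysomal rise of CYP707A1, 1.34, was then 0.90 and below the limit.

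Polysome occupancy, the polysomal minus the total level of a gene at one time point, asks whether an mRNA is more or less often on polysomes than the average mRNA. In dry seeds it was 1.20 for NCED3 (SE 0.24, adjusted p = 0.000885 from limma) and 1.05 for AAO3 (SE 0.26, adjusted p = 0.00595), so that 2 of the 6 genes were called, both higher in polysomal mRNA, where 3.39% of all genes were called and 2.69% were called higher. NCED3 had passed the noise filter only through polysomal mRNA of dry seeds and of 72 HAI. That favours a polysomal level above the total level at both time points. NCED5 was at 0.93 (SE 0.32, adjusted p = 0.0422), just below the 2-fold limit. For these 3 genes, all polysomal replicates of dry seeds lay above all total replicates, as was also the case for CYP707A2. NCED9, CYP707A1 and CYP707A2 were at 0.22, 0.20 and 0.28, with adjusted p between 0.360 and 0.567.

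These dry seed values lay close to the 2-fold limit and moved across it with single arrays. NCED3 was at 0.97 without replicate 3 of total mRNA, AAO3 at 0.92 without replicate 1 of total mRNA and at 0.85 without replicate 3 of polysomal mRNA, and NCED5 reached 1.13 without replicate 2 of total mRNA. A further quantile normalization gave 0.81 for NCED3 and 0.71 for AAO3, neither of them called.

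At 6, 26, 48 and 72 HAI no gene of the 6 was called in polysome occupancy with limma, where 3.97%, 3.49%, 10.1% and 11.8% of all genes were called. Several of these values compare signals below the noise level on all arrays of both fractions, where occupancy is poorly determined. These were NCED3 at 6, 26 and 48 HAI, NCED5 at 26 and 72 HAI and NCED9 at 48 and 72 HAI. CYP707A1 at 6 and 26 HAI and CYP707A2 at 48 and 72 HAI were also below it. In the polysomal fraction alone, CYP707A2, NCED9 and AAO3 at 26 HAI were below it on all arrays. In total mRNA alone, NCED5 at 48 HAI and NCED3 at 72 HAI were below it on all arrays. CYP707A2 at 6 HAI (−0.45) and 26 HAI (−0.54) and CYP707A1 at 48 HAI (−0.55) had a limma p below 0.05 only before adjustment. NCED3 (0.71) and AAO3 (0.85) at 72 HAI had an adjusted p below 0.05 from limma and missed a call on size. AAO3 at 72 HAI was 1.16 without replicate 3 of polysomal mRNA, the array with high seed gene levels, 1.03 without replicate 2 of total mRNA and 1.12 after a further quantile normalization, and was called each time. NCED5 at 72 HAI, 0.63, was called at 1.06 without replicate 3 of total mRNA.

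**Figure D3:**
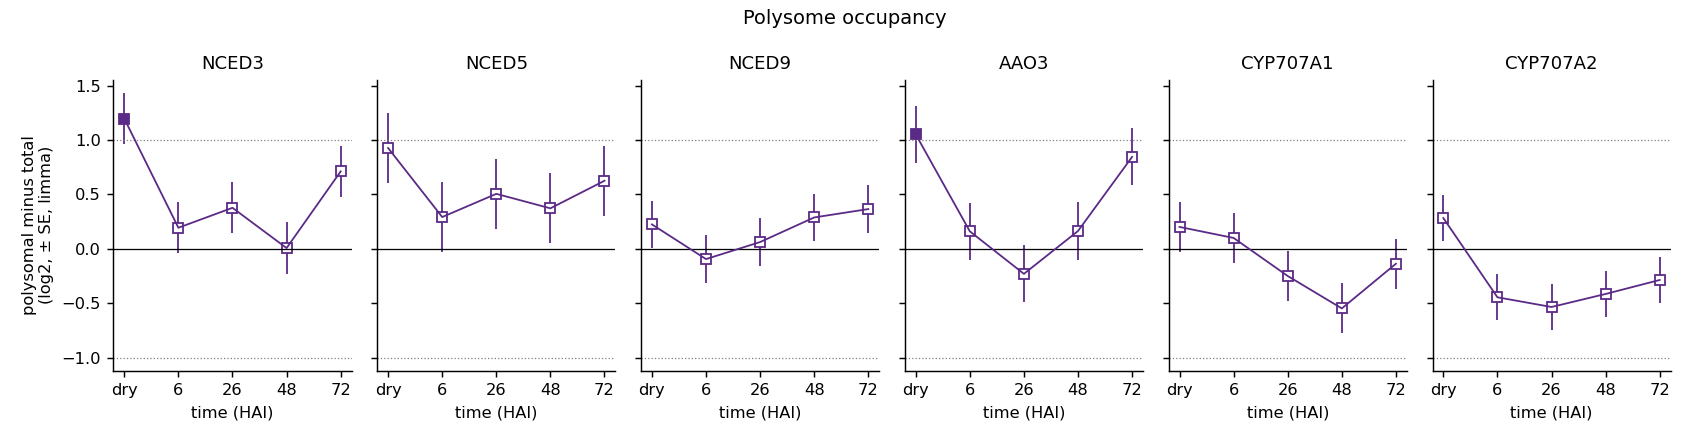
Polysome occupancy (polysomal minus total level, log2, ± SE from limma) of the 6 tested genes at each time point (HAI). Filled squares are called values and dotted lines mark 2-fold differences. NCED3 at 1.20 and AAO3 at 1.05 in dry seeds are the called values, and the CYP707A2 values from 6 HAI on are between −0.54 and −0.29. Those of CYP707A2 at 48 and 72 HAI compare levels below the noise.

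Whether occupancy itself differed between neighbouring time points was asked with a contrast of 4 groups. From dry seeds to 6 HAI, 1 of the 6 genes was called lower, NCED3 with −1.004 (SE 0.33, adjusted p = 0.0394 from limma), where 9.23% of all genes were called and 7.05% were called lower. The value lay at the 2-fold limit, and the call was lost without any one of 7 of the 12 arrays compared and under 5 of the other alternatives. At 6 HAI NCED3 was below the noise level on every array of both fractions, so the size of this change is poorly determined. Its passing of the noise filter through polysomal mRNA of dry seeds also favours a lower occupancy at 6 HAI. AAO3 changed by −0.89 (SE 0.37, adjusted p = 0.0986), CYP707A2 by −0.73 (SE 0.30, adjusted p = 0.0945) and NCED5 by −0.64 (SE 0.45, adjusted p = 0.357). NCED9 and CYP707A1 changed by −0.32 and −0.10. Of the genes that did not pass the noise filter, NCED2 was at −1.04, NCED6 at 0.31, CYP707A3 at 0.36 and CYP707A4 at 0.35, none of them called.

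No gene was called in polysome occupancy change in the later intervals, in which 0.0234%, 4.4% and 0.205% of all genes were called with limma. NCED3 between 48 and 72 HAI, with 0.71 (SE 0.33, adjusted p = 0.462 from limma), had a p below 0.05 only before adjustment. Its passing of the noise filter through polysomal mRNA of 72 HAI favours such a change. The large changes of CYP707A1 and CYP707A2 between 26 and 48 HAI came with occupancy changes of −0.30 (SE 0.32) and 0.12 (SE 0.30). CYP707A1 at 26 HAI and CYP707A2 at 48 HAI were below the noise level in both fractions, so these occupancy changes are poorly determined.

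Other genes of the ABA pathway were taken as a list of 22, of which 16 passed the noise filter. In total mRNA 2 of the 16 rose and 4 fell between dry seeds and 6 HAI, 2 rose and 5 fell between 6 and 26 HAI, 2 rose and 2 fell between 26 and 48 HAI, and 2 rose and 1 fell between 48 and 72 HAI. Over all tested genes the shares called in these intervals were 26.8%, 25.7%, 30.2% and 12%. From dry seeds to 72 HAI 6 rose and 5 fell in each fraction, beside 33% of all tested genes called higher and 27.1% lower in total mRNA, with 30.2% higher and 31.1% lower in polysomal mRNA. The median change of the list over that interval was 0.23 in total mRNA, against 0.06 over all tested genes.

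The genes ABA1, ABA2 and ABA4, which act upstream of AAO3, and ABA3 did not move together. These 4 genes are described because they serve the same route, and after their values had been seen. ABA1, the zeaxanthin epoxidase at the entry of the route, went in total mRNA from 9.09 ± 0.11 (SD, n = 3) in dry seeds through 7.97 ± 0.07 and 6.50 ± 0.10 to 5.72 ± 0.13 at 48 HAI and 6.88 ± 0.07 at 72 HAI. It fell in the first and second intervals, by 1.13 and 1.47, and rose in the last, by 1.15 (adjusted p = 4.37e-08 from limma). ABA3, the sulfurase that activates the molybdenum cofactor of aldehyde oxidases, was lower in total mRNA at 72 HAI than in dry seeds, by −2.56 (SE 0.22). ABA4, required for neoxanthin formation, and ABA2, the dehydrogenase that converts xanthoxin, were higher in total mRNA, by 1.88 (SE 0.16) and 1.46 (SE 0.18), and by 2.99 and 0.90 in polysomal mRNA, the last of which was below the 2-fold limit.

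Beyond the core route, the largest fall of the list on hydration was that of NCED4, a carotenoid cleavage dioxygenase of the family, from 9.63 ± 0.15 (SD, n = 3) to 5.67 ± 0.08 in total mRNA (−3.96, SE 0.16, adjusted p = 2.63e-16 from limma). It rose again between 48 and 72 HAI by 1.35, the interval in which NCED3 and ABA1 rose. AAO1, an aldehyde oxidase related to AAO3, had the largest falls of the list in total mRNA between 6 and 26 HAI (−2.15) and between 26 and 48 HAI (−2.40), and from dry seeds to 72 HAI, from 10.37 ± 0.12 to 5.88 ± 0.30 (−4.49, SE 0.15, adjusted p = 5.93e-19). Phytoene synthase, PSY, the entry to carotenoid synthesis, had the largest rise over the same interval, from 3.90 ± 0.04 to 6.55 ± 0.04 (2.65, SE 0.17, adjusted p = 1.52e-13). In polysome occupancy the one gene of the list called at any time was PDS3, phytoene desaturase, at 72 HAI with 1.05 (SE 0.13, adjusted p = 1.03e-06). Of all tested genes 11.8% were called at 72 HAI, and 3.39%, 3.97%, 3.49% and 10.1% at the earlier time points in order. ABA1 at 72 HAI was at 7.86 in polysomal and 6.88 in total mRNA and was not called. No change of occupancy was called in the list, beside 9.23%, 0.0234%, 4.4% and 0.205% of all tested genes over the intervals in order.

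**Figure D4:**
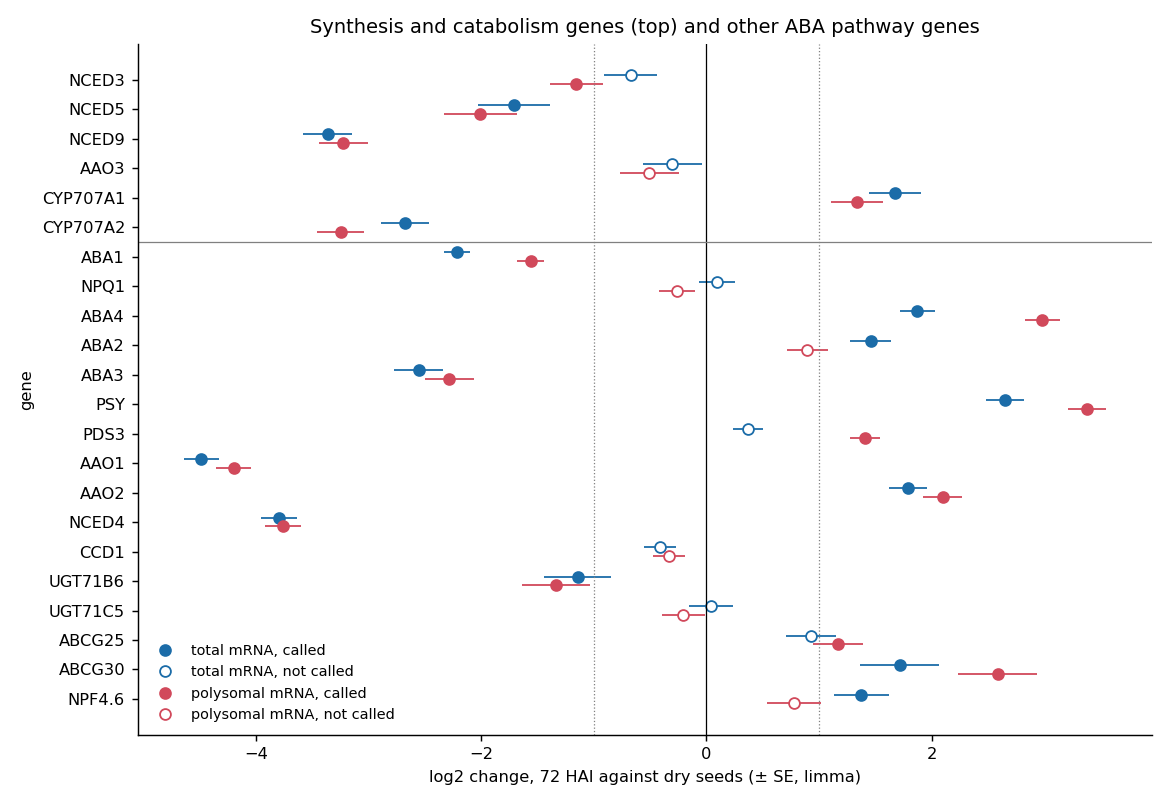
Log2 change from dry seeds to 72 HAI (horizontal axis, ± SE from limma) of the 6 tested synthesis and catabolism genes (above the line) and the 16 tested genes of the pathway list, in total mRNA (blue) and polysomal mRNA (red). Filled points are called changes and dotted lines mark 2-fold changes. NCED9 and AAO1 lie at −3.37 and −4.49 in total mRNA, and CYP707A1 and PSY at 1.68 and 2.65.

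For each tested gene, the gene outside the 10 with the most similar levels over the 30 arrays was looked up by Pearson's r. CYP707A2 was most like KUP9 (AT4G19960), a potassium uptake permease, with an r of 0.98, and NCED9 was most like AT3G06630, also with 0.98. CYP707A1 was most like HOTHEAD (AT1G72970) with 0.95. NCED3 was most like AAE17 (AT5G23050) with 0.91, NCED5 like ABCI19 (AT1G03905) with 0.86 and AAO3 like AAE18 (AT1G55320) with 0.78. These are the highest of 17055 values each and carry no test.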

How the data were processed

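Per the labels and the study's methods, total and polysomal RNA of Col-0 seeds were hybridised to Affymetrix Arabidopsis Gene 1.1 ST arrays, 1 array for each of 30 samples. The deposited log2 values were made by the authors with RMA (background correction, quantile normalization and summary of probes per gene with a custom probe set definition), so that a change is relative to the other genes. The labels name whole-transcript labelling kits and the methods a 3′ kit, which was not settled here. Arrays give no read depth, and their number limits the precision. The files hold no detection flags, and their values were used as deposited, with 0 columns left out.

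Values were fitted with limma 3.58.1 in R 4.3.3, with one mean for each of the 10 groups and moderated variances, over the genes above log2 4 in all 3 replicates of a group. P-values were adjusted by Benjamini-Hochberg within each of 19 comparisons, and the procedure was tested on simulated data. The labels number biological replicates without saying how seed batches were divided. Genes were matched by locus, and symbols are those of RefSeq (TAIR10.1), which held 27241 of the loci and all 10 genes. All 10 genes are named. From the pathway list of 22, the text names the strongest called rise and fall in each comparison of total mRNA and in occupancy, and others only where it says so. The genes and lists were chosen with earlier results of these data known. Alternatives were another scaling, other noise filters, other variance models, a test against a 2-fold change, a replicate block and leaving out each array. Figures were drawn with matplotlib 3.10.9.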

Additional observations from a re-analysis of the deposited data

Results flagged for a closer look

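The change of polysome occupancy of NCED3 from dry seeds to 6 HAI, −1.004 on the log2 scale (SE 0.33, adjusted p = 0.0394 from limma), met the criterion for an effect that differs between conditions, because the polysomal fall (−2.80) and the total fall (−1.79) differed in the test of the difference itself. It lay at the 2-fold limit, and leaving out single arrays gave values from −1.33 (without replicate 2 of total mRNA at 6 HAI) to −0.74 (without replicate 1 of total mRNA at 6 HAI). Both fractions of NCED3 were below the noise level on every array of 6 HAI, where occupancy is poorly determined. NCED3 had passed the noise filter through polysomal and not total mRNA of dry seeds, which favours this change.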

How the results depend on the processing

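No called change reversed its sign, whereas some small changes that were not called did so without a single array (AAO3 in total mRNA at 26 against 6 HAI, 0.13, became −0.13). Tested against a 2-fold change with limma's treat, 1 gene was called in total mRNA at 6 HAI against dry seeds, 1 at 26 against 6 HAI and 0 at 72 against 48 HAI. In polysomal mRNA treat called 1 gene at 6 HAI against dry seeds, 1 at 26 against 6 HAI, 1 at 48 against 26 HAI and 3 at 72 HAI against dry seeds, and it called 0 in occupancy of dry seeds. A further quantile normalization left 0 genes called in total mRNA at 72 against 48 HAI and 0 in occupancy of dry seeds, and 1 (AAO3) in occupancy at 72 HAI. Without the noise filter 7 genes were called in total mRNA at 72 HAI against dry seeds, because more genes were tested. The occupancy change of NCED3 at 6 HAI against dry seeds was not called, leaving 0 genes, under quantile normalization (−0.55), treat, no noise filter (adjusted p = 0.0597 from limma), a fit of the groups compared alone (0.112) or variances with an intensity trend and robust moderation together (0.0549). The cause was not tested.

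Leaving out single arrays gave 1 to 4 called genes in total mRNA at 6 HAI against dry seeds, 0 to 2 at 72 against 48 HAI, 1 to 2 in polysomal mRNA at 72 against 48 HAI, 1 to 3 in occupancy of dry seeds, 0 to 1 in occupancy at 72 HAI and 0 to 1 in the occupancy change at 6 HAI. The count of 1 in total mRNA at 6 HAI came without replicate 1 of dry seeds and the count of 4 without replicate 3 of 6 HAI. Of the 114 gene values, 112 kept their side of the threshold with array medians set equal, 108 under quantile normalization, 114 with the noise level at 5 and 99 under treat.

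With the replicate number as a block, 0 of the 19 counts and 0 calls of single genes changed, so that 2 genes were called in total mRNA at 6 HAI against dry seeds as without it. This block takes a replicate number to mean the same in all 10 groups. Pairing of the fractions within a time point was not fitted, so its effect on the occupancy tests is not known. Same-numbered total and polysomal arrays of a time point had correlated deviations from their group means of −0.0016 to 0.20 over 15 pairs (median 0.072), 2 of them above 0.1, and 24 of 30 arrays correlated best with their own number, a hint from the data. The numbers were not taken to pair the samples. Levels below 4 limit what can be said of the size of falls such as those of NCED9 and CYP707A2 and of rises such as that of CYP707A1.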

Other observations

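Genes for ABA transport and conjugation in the pathway list had courses of their own. ABCG25, an exporter of ABA, was in total mRNA at 5.28 ± 0.10 (SD, n = 3) in dry seeds, 3.05 ± 0.28 at 6 HAI and 6.98 ± 0.11 at 26 HAI, and rose in the second step, from below the noise level (3.93, SE 0.22, adjusted p = 7.66e-14 from limma). Its polysomal level went from 5.22 to 2.82 and 6.80 over the same time points. NPF4.6, which imports ABA, rose from below the noise level between dry seeds and 6 HAI in total mRNA (2.24, SE 0.24, adjusted p = 1.49e-08 from limma). ABCG30, an ABA importer studied in seeds, was below the noise level up to 26 HAI, rose by 2.62 between 26 and 48 HAI and fell by 1.44 between 48 and 72 HAI. ABCG30 had passed the noise filter only through 48 and 72 HAI, and NPF4.6 only through imbibed samples. This favours the rises of both.

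UGT71B6 and UGT71C5, which glucosylate ABA, are named after their values were seen. UGT71B6 was lower in total mRNA at 72 HAI than in dry seeds, by −1.14 (SE 0.30, adjusted p = 0.00107 from limma), whereas UGT71C5 differed by 0.04 (SE 0.19). UGT71B6 had passed the noise filter only through polysomal mRNA of dry seeds, which favours this difference. Its level at 72 HAI was below the noise on all arrays, so the size is poorly determined.

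All 27827 genes were also tested without the noise filter, which NCED2 and NCED6 did not pass. Between dry seeds and 72 HAI total NCED6 then differed by −1.31 (SE 0.24, adjusted p = 2.80e-05 from limma), and polysomal NCED6 by −0.64, below the 2-fold limit. Total NCED2 differed by −1.21 (SE 0.36, adjusted p = 0.00413 from limma). Total NCED2 and both fractions of NCED6 were below the noise level on every array, so the size of these differences is poorly determined. Occupancy of NCED2 in dry seeds without the filter was 1.19 (adjusted p = 0.0257 from limma). Without replicate 3 of polysomal mRNA in dry seeds, the lowest of the 3 at 3.64, NCED2 passed the noise filter through that group alone. Its dry seed occupancy was then 1.57 and its polysomal change to 6 HAI −2.18, both called. The array left out and the filter favour both of these calls.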
